A study of Mus musculus with 22 samples.

Results

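Testis RNA of mice mutant in Sgms1 was compared with testis RNA of wild-type mice, and these 8 arrays are all the testis samples among the 22 arrays of the series. They were chosen by the tissue label alone. The 4 wild-type and 4 mutant arrays came from 8 separate C57BL/6J mice aged 27 weeks, and the series describes the animals as male. The wild-type mice carried no named allele, and the mutants are labelled only as mutant in Sgms1. Neither the kind of mutation nor its place in the gene is stated. The other 14 arrays were brain and muscle of mice aged 17 weeks, with 3 wild-type and 4 mutant samples per tissue. Levels below are log2 intensities of Illumina bead arrays after background correction and quantile normalization, and a difference is mutant minus wild type on that scale.

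Sgms1 encodes sphingomyelin synthase 1, a Golgi enzyme that moves the phosphocholine head group of phosphatidylcholine onto ceramide and so makes sphingomyelin and diacylglycerol. Its paralogue Sgms2 acts mainly at the plasma membrane, and Samd8 makes the related lipid ceramide phosphoethanolamine in the endoplasmic reticulum. Germ cells of the testis hold sphingolipids with very long polyunsaturated acyl chains and the sulfated glycolipid seminolipid, and Sertoli cells nurse them behind the blood-testis barrier. As round spermatids elongate, histones give way to transition proteins and then to protamines, which pack the sperm head.

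The tissue label was checked on values normalized over all 22 arrays. Testis was above both other tissues for 22 of 23 elongated spermatid genes, 22 of 27 round spermatid genes, 15 of 28 meiotic genes, 12 of 25 Sertoli genes and 6 of 17 Leydig cell genes. The elongated spermatid genes had a median level of 11.15 in testis, 4.35 in brain and 4.40 in muscle. Of 7 skeletal muscle markers and 6 brain markers, 0 were detected on every testis array. The same arrays also carried epididymal transcripts, with a median level of 8.44 for the 33 genes of that list against 4.32 in brain.

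These epididymal transcripts set 1 library apart. Lcn8, a lipocalin secreted by the epididymis, had levels of 12.24, 12.07, 11.93 and 6.00 in wild type 1 to 4 and of 11.82, 11.98, 11.93 and 11.55 in mutant 1 to 4. Spint4, a protease inhibitor gene of the same duct, stood at 9.91, 9.69, 9.58 and 4.51 in wild type and at 9.98, 9.31, 10.25 and 9.45 in mutants. Adam7, a sperm surface protein secreted by the epididymis, stood at 11.00, 11.03, 10.49 and 5.12 in wild type and at 9.94, 11.11, 10.83 and 11.07 in mutants. In each of these genes wild type 4 alone was low and the other 7 arrays overlapped. The mean over the 31 measured epididymal genes lay between 7.81 and 8.25 in 7 arrays and at 5.16 in wild type 4, where 28 of the 31 genes had their lowest level. In all, 60 probes were at least 4-fold lower in wild type 4 than in every other array, and 16 genes of the epididymis list were among them. No other array had more than 2 such probes. All these genes were chosen with their values known.

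**Figure D1:**
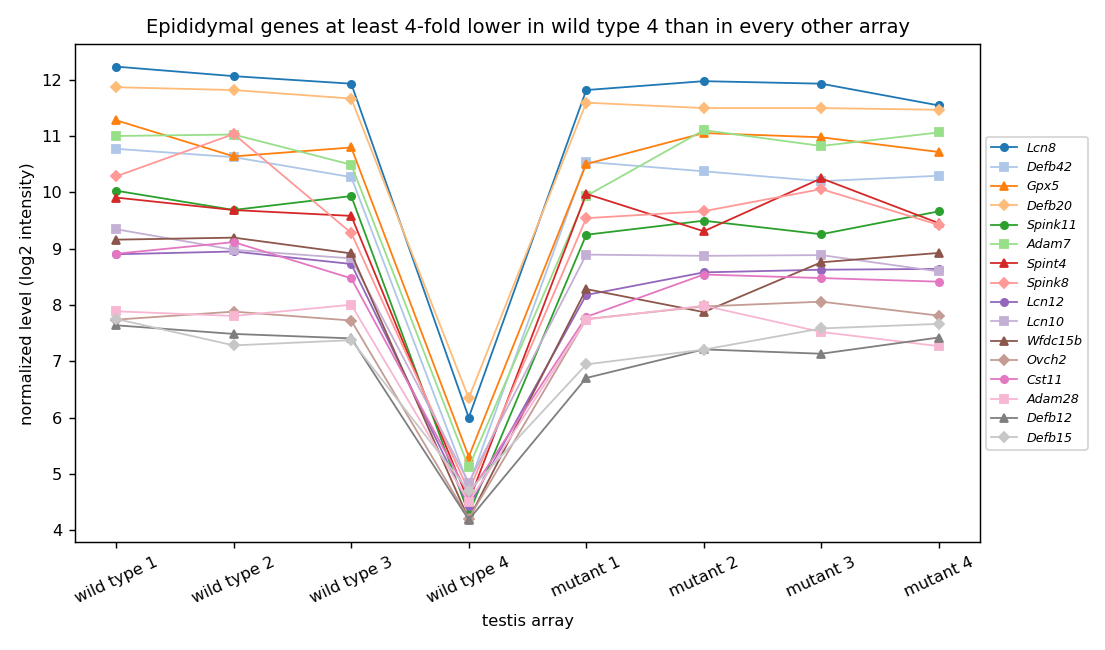
Normalized level (y axis, log2 intensity) on each of the 8 testis arrays (x axis) of the 16 epididymis list genes that were at least 4-fold lower in wild type 4 than on every other array; each line is 1 gene. All 16 lines drop at wild type 4, and the 4 mutant arrays lie near wild type 1 to 3.

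A second wild-type library was dim. Wild type 2 had 10560 detected probes against 11458 to 12108 on the other arrays, and 95% of its probes lay below an intensity of 250.1 against 436.9 to 552.8 elsewhere. Wild-type arrays correlated with each other at 0.937 to 0.982 and mutant arrays at 0.983 to 0.987. The spread was larger among wild types for 69.8% of the 12487 probes kept. For differences that leaving out either array moved most, the value without it is given too. Whether these libraries differ in dissection, RNA quality or hybridization was not tested. In whole tissue, fewer cells of a type and less RNA per cell cannot be told apart.

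The first question was whether the mutated gene itself was lower. Sgms1, measured by 1 probe that was detected on all 8 arrays, had levels of 6.07, 5.43, 6.26 and 6.55 in wild type 1 to 4. In mutant 1 to 4 it had levels of 5.06, 5.89, 4.97 and 5.89. Mutants 1 and 3 lay below every wild type, whereas mutants 2 and 4 lay above wild type 2, the dim array. The means were 6.08 ± 0.47 (SD, n = 4) and 5.45 ± 0.51 (SD, n = 4). The difference of -0.62 (SE 0.265), or 1.54-fold lower in mutants, did not pass (limma adjusted p = 0.834). The exact two-sided permutation p was 0.143, where 4 arrays against 4 can give no less than 0.0286. Without wild type 2 the difference was -0.86, and without wild type 4 it was -0.47. Where this probe lies with respect to the mutated part is unknown, so its level does not check the genotype labels.

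The other synthases of the family did not take a higher level in mutants that the test could show. Sgms2 had levels of 8.06, 8.04, 8.09 and 8.38 in wild type and of 8.03, 8.11, 7.67 and 8.18 in mutants. The genotypes overlapped, and the difference was -0.15 (limma adjusted p = 0.884, exact permutation p = 0.457), turning to 0.05 with median scaling and at -0.07 without wild type 4. Samd8 had levels of 8.59, 7.56, 8.94 and 8.96 in wild type and of 8.57, 8.61, 8.51 and 8.51 in mutants. The 4 mutant arrays lay close together, above wild type 2 and below wild types 3 and 4. Its difference was 0.04 (limma adjusted p = 0.982, exact permutation p = 0.971), and it turned to -0.28 without wild type 2 and was 0.19 without wild type 4. Genes on either side of Sgms1 in RefSeq gene order were also read, with 6 measured genes per side. Their differences ran from -0.22 for Lipo3 to 0.26 for Minpp1, 5 of 12 were above 0, and 0 of 12 had an unadjusted p under 0.05.

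Across all probes the genotypes were not separated at this number of arrays. Of 12487 probes, 0 passed a Benjamini-Hochberg adjusted p of 0.05 in limma (0% called), and the smallest adjusted p was 0.207. At an unadjusted p under 0.05, 691 probes (5.53%) were counted, 309 of them higher (2.47%) and 382 lower (3.06%) in mutants. Groups without overlap were found for 427 probes (3.42%), 212 higher (1.7%) and 215 lower (1.72%). Since 5% of probes would have an unadjusted p under 0.05 if no gene differed, the named genes below are described by their values. On 1 probe per gene, 2.66% of the 8977 genes were higher and 3.13% lower at an unadjusted p under 0.05, and 55.5% had a difference above 0. These shares are the background for every gene group.

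The count depended on which arrays gave the spread. When 1 fit over all 22 arrays was made on the same testis values, 40 probes passed (0.32%), 33 of them lower and 7 higher in mutants. The residual degrees of freedom then rose from 6 to 16, and the median within-group SD of these probes was 0.207 in testis, 0.139 in brain and 0.144 in muscle. The spread used for testis was thus partly that of quieter tissues. Brain and muscle arrays were taken as independent here and in the tests between tissues below, although both tissues came from the same mice. All differences are the same in both fits, and the named genes that passed in this fit are listed with the genes of smallest p.

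Sphingolipid genes were grouped by step of the pathway, and in each group 0 genes passed. In the list of sphingomyelin synthesis and hydrolysis, Sgms1 was the 1 gene of 10 with an unadjusted p under 0.05. The median of that list was -0.05, turning to 0.06 with median scaling. Cert1, the transfer protein that carries ceramide to the Golgi, differed by -0.03, and Smpd1, the lysosomal sphingomyelinase, by 0.08, both named after their values were seen. Of 8 genes of de novo ceramide synthesis, 7 had a difference above 0 and the median was 0.15 (0.10 without mutant 3), against 0.02 over all genes. Cers2, which makes ceramides with very long acyl chains, was the 1 of 8 at an unadjusted p under 0.05. Its levels were 6.54, 6.36, 6.17 and 6.11 in wild type and 6.61, 6.64, 6.66 and 6.51 in mutants. Only mutant 4 fell within the wild-type range. The difference was 0.31 (SE 0.128, limma adjusted p = 0.834), but 2 further probes of Cers2 differed by -0.06 and -0.17.

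Ceramide can also be turned into glycosphingolipids, and that branch held 2 of 14 genes at an unadjusted p under 0.05. Both were higher in mutants, against 2.66% of all genes higher at that p. Ugcg, which puts glucose on ceramide in the first step of the branch, had levels of 7.61, 7.52, 7.92 and 7.99 in wild type and of 8.09, 8.41, 8.19 and 7.93 in mutants. Mutants 1 to 3 lay above every wild type and mutant 4 among them. The difference was 0.40 (SE 0.151, limma adjusted p = 0.834), 0.32 without wild type 2 and 0.47 without wild type 4. Gm2a, the activator protein for ganglioside breakdown in the lysosome, had levels of 9.86, 9.93, 10.00 and 10.10 in wild type and of 10.33, 10.14, 10.47 and 10.14 in mutants. Its groups did not overlap, and the difference was 0.30 (SE 0.124, limma adjusted p = 0.834). Psap, the precursor of the saposin activators, differed by 0.34 with overlapping groups. Of the 14 genes 10 had a difference above 0, with a median of 0.11 that ran from 0.06 without wild type 3 to 0.18 without wild type 4. Ugt8a, which adds galactose on the way to seminolipid, differed by 0.15 with overlapping groups. Among 11 genes of ceramidases and sphingosine-1-phosphate, the phosphatase gene Sgpp1 was the 1 at an unadjusted p under 0.05. It stood at 7.71, 7.30, 7.67 and 7.03 in wild type and at 8.09, 7.90, 7.76 and 7.64 in mutants, a difference of 0.42 (SE 0.17). Without both wild type 2 and wild type 4 that difference was 0.16. The list median of 0.07 turned to -0.01 without wild type 2.

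**Figure D2:**
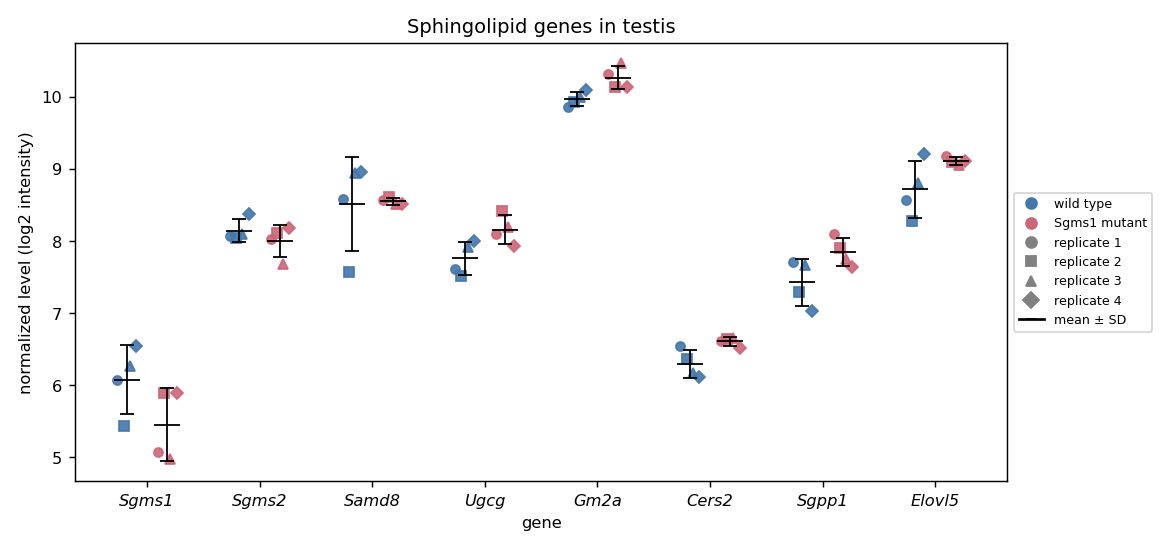
Normalized level (y axis, log2 intensity) of 8 sphingolipid and fatty acid genes (x axis) in wild-type (blue) and Sgms1 mutant (red) testis; symbols mark the replicate, black bars the mean ± SD of 4 arrays. Sgms1 lies lower in mutants 1 and 3, and of the genes drawn only Gm2a has no overlap between genotypes.

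The supply of very long chain fatty acids and of cholesterol was read beside these. Of 19 genes of very long chain fatty acid synthesis, 14 had a difference above 0, the median was 0.13 (0.07 without wild type 4), and 1 gene had an unadjusted p under 0.05. That gene was Elovl5, an elongase of polyunsaturated fatty acids, with levels of 8.57, 8.28, 8.80 and 9.21 in wild type and of 9.18, 9.10, 9.06 and 9.12 in mutants. Wild type 4 lay above all mutants and the other 3 wild types below them. Its difference was 0.40 (SE 0.175, limma adjusted p = 0.834), 0.25 without wild type 2 and 0.56 without wild type 4. Elovl2, an elongase needed for the longest polyunsaturated chains in testis, differed by 0.04. Of 16 genes of cholesterol synthesis, 0 had an unadjusted p under 0.05, and the median was 0.04.

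Over all 8977 genes, 3.13% were lower in mutants at an unadjusted p under 0.05. Of 23 measured genes of elongated spermatids and the sperm tail, 0 passed and 4 had an unadjusted p under 0.05, each at a lower level in mutants. These were the protamine gene Prm1, Prm3 of its gene cluster, the transition protein gene Tnp2 and the linker histone gene H1f7. Their promoters are shown because these 4 had the smallest p of the list and the same sign. Prm1, Prm3 and Tnp2 lie in 1 cluster on chromosome 16. The promoters below run from 250 bases before to 50 bases after the transcription start, from RefSeq on GRCm38.p6, all read 5′ to 3′. Both strands were searched for the cyclic AMP response element that CREM binds, in full (TGACGTCA), as its shorter core (TGACG) and with open middle bases (TGANNTCA), and for the TATA box (TATAAA). The form with open bases was added after the full one gave no match. A full element would match all 3 of its forms. Capitals mark the matches.
Prm1 promoter (chr16:10796774-10797073, minus strand): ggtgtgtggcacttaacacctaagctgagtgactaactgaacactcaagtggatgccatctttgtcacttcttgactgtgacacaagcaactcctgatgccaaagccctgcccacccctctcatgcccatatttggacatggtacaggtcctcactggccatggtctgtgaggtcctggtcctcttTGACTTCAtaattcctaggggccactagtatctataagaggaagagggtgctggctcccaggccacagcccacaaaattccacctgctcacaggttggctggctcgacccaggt
Prm3 promoter (chr16:10790865-10791164, minus strand): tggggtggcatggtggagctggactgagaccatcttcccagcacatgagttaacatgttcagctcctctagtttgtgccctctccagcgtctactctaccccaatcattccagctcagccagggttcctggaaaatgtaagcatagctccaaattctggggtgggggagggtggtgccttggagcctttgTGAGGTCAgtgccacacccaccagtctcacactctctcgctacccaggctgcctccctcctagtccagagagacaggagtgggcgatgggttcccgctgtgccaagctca
Tnp2 promoter (chr16:10788606-10788905, minus strand): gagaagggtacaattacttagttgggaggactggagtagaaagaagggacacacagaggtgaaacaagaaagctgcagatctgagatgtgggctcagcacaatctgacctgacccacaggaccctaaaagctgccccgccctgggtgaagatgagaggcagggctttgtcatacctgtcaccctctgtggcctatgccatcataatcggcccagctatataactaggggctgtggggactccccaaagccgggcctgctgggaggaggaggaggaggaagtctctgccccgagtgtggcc
H1f7 promoter (chr15:98257258-98257557, minus strand): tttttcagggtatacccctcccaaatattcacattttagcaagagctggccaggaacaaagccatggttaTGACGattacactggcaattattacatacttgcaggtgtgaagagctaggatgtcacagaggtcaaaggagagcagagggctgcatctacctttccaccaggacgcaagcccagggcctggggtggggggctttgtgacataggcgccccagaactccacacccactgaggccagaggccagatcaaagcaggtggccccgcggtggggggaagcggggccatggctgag

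The full element was in 0 of these 4 promoters and in 1.79% of 32851 mouse promoters of the same length. TGANNTCA began 64 bases before the Prm1 start and 60 bases before the Prm3 start, and 14.1% of all promoters held it. TGACG was found in the H1f7 promoter, 180 bases before its start, and in 20.8% of all promoters. TATAAA was in none of the 4 and in 13.6% of all. The promoters of Tnp1 and Prm2, which are outside these 4, were searched too. TGANNTCA began 94 bases before the Tnp1 start, and TATAAA began 31 bases before the Prm2 start. TGANNTCA was thus not confined to genes among the 4. A match describes letters in this window only.

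Prm3, a gene of the Prm1 cluster, had the largest difference among the 24 genes of smallest p. Its levels were 8.30, 9.05, 8.13 and 8.26 in wild type and 7.04, 7.55, 6.93 and 7.89 in mutants. All 4 mutants lay below all 4 wild types. The difference was -1.09 (SE 0.239), or 2.12-fold lower, which did not pass (limma adjusted p = 0.751). It was -0.88 without wild type 2, and it passed in the fit over all 22 arrays (limma adjusted p = 0.00553).

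H1f7, a linker histone of spermatids, had levels of 8.64, 9.13, 8.61 and 8.70 in wild type and of 8.16, 8.02, 8.13 and 8.67 in mutants. Mutant 4 alone reached the wild-type range, and the difference was -0.53 (SE 0.169, limma adjusted p = 0.834). Tnp2, a transition protein, had levels of 6.96, 7.18, 6.60 and 6.52 in wild type and of 5.54, 6.46, 6.27 and 6.66 in mutants. Mutants 1 to 3 lay below the wild types, with a difference of -0.58 (SE 0.229, limma adjusted p = 0.834). It was -0.35 without mutant 1. Prm1, the main protamine of mouse sperm beside Prm2, had levels of 12.41, 12.93, 12.41 and 12.12 in wild type and of 11.95, 12.23, 11.85 and 12.21 in mutants. Its difference of -0.41 (SE 0.172, limma adjusted p = 0.834) was -0.25 without wild type 2. For Prm3, H1f7, Tnp2 and Prm1 the highest array was wild type 2, the dim one, and the part of that array's quality in these levels was not tested. Without it the differences of H1f7 and Tnp2 were -0.41 and -0.47.

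Of the 23 measured genes of this list, 17 had a difference below 0. The median was -0.13, and -0.03 with median scaling. Odf1, a protein of the outer dense fibers of the sperm tail, differed by -0.03 and Odf2 by 0.10. Tnp1, the other transition protein, differed by -0.29 and Hils1, a second spermatid linker histone, by -0.22, both with overlapping groups. Odf1, Odf2 and Hils1 were named after their values were seen. The list mean per array ran from 9.72 to 9.85 in wild type and from 9.43 to 9.76 in mutants, so mutants 2 and 4 lay near the wild types.

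**Figure D3:**
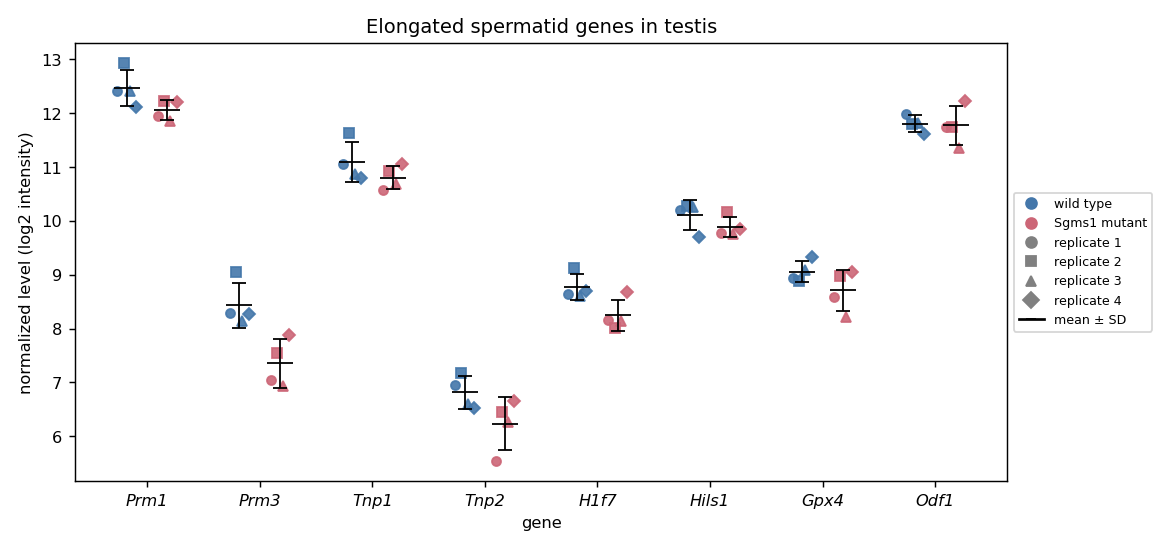
Normalized level (y axis, log2 intensity) of 8 elongated spermatid genes (x axis) in wild-type (blue) and Sgms1 mutant (red) testis; symbols mark the replicate, black bars the mean ± SD of 4 arrays. Prm3 is lower in all 4 mutants, and wild type 2 (square) is the highest array for Prm1, Prm3, Tnp1, Tnp2 and H1f7.

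The 33 lower calls of the fit over all 22 arrays held further spermatid genes, named here after their values were seen. H2ap, an H2A-like histone of spermatids, had levels of 10.01, 10.45, 9.83 and 10.13 in wild type and of 9.33, 9.61, 9.04 and 9.66 in mutants. H2al2a, an H2A variant that works with transition proteins, had levels of 7.97, 8.34, 7.97 and 7.85 in wild type and of 7.31, 7.56, 6.87 and 7.62 in mutants. Both differed by -0.69 with no overlap, and in the testis fit alone both had a limma adjusted p of 0.767. H2al1m differed by -0.59. These histones belong to gene families with near-identical copies, so a probe may read more than 1 copy. Theg, a spermatid gene, differed by -0.55 with no overlap. No count over these genes supports a group, since they were picked from the calls.

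Of 24 measured genes of round spermatids and the acrosome, 0 had an unadjusted p under 0.05, and the median was -0.06, turning to 0.07 with median scaling. Acrv1, an acrosomal protein, differed by -0.05 and Acr, the acrosomal protease, by 0.07. Of 19 meiotic genes 0 had an unadjusted p under 0.05 either, with a median of 0.04, at -0.03 without mutant 4 and 0.22 with median scaling. For 3 of them the genotypes did not overlap, with mutants higher: Hspa2, the chaperone of spermatocytes (0.24), Piwil1, which binds piRNAs (0.20), and Mlh3, of crossover repair (0.23). Over all genes, 163 of 8977 were apart with mutants higher. A second probe of Hspa2 differed by -0.04. Of 4 spermatogonial genes 0 had an unadjusted p under 0.05.

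Among the supporting cells, Sertoli genes had a median difference of 0.14 (0.09 without mutant 3) over 19 measured genes, 13 of them above 0. Of the 4 at an unadjusted p under 0.05, 3 were higher and 1 lower, against 2.66% and 3.13% over all genes. Mro, 1 of the 3 and of the 13, met the detection filter only through the mutants, so it lends these counts no support. Clu, the secreted chaperone clusterin, had levels of 11.23, 11.14, 10.95 and 10.39 in wild type and of 11.39, 11.55, 11.45 and 11.08 in mutants. Wild type 4 was the lowest of the 8, and the difference was 0.44 (SE 0.183, limma adjusted p = 0.834). Epididymis also makes clusterin, and the epididymal mean was 5.16 in wild type 4. Whether epididymal RNA had a part in the Clu level of that array was not tested. Without wild type 4 the difference of Clu was 0.26. Espn, an actin bundler of the Sertoli junctions with spermatids, had levels of 8.80, 8.77, 9.16 and 9.37 in wild type and of 9.33, 9.44, 9.61 and 9.35 in mutants. Its difference was 0.41 (SE 0.154), while 3 further probes of Espn differed by 0.16, -0.13 and -0.10. Mro was detected on 0 of 4 wild-type and 3 of 4 mutant arrays, so its probe was kept only through the mutants. Its groups overlapped, with mutant 1 (4.40) below wild type 1 (4.42), and it did not pass (limma adjusted p = 0.834). Its mutant mean, which includes an undetected array, was at least 1.06-fold higher. Its fitted difference of 0.29 was 0.18 without both wild type 2 and wild type 4. Tsx, a testis-specific X-linked gene, differed by -0.31 with no overlap. Of 11 genes of blood-testis barrier junctions, 0 had an unadjusted p under 0.05, and Cldn11, its main claudin, differed by 0.21.

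Steroid synthesis gave little. Of 11 measured Leydig cell genes, 1 had an unadjusted p under 0.05, and the median was -0.06, turning to 0.05 with median scaling. Cyp17a1, an enzyme of androgen synthesis, had levels of 8.44, 8.98, 8.64 and 9.02 in wild type and of 8.48, 8.55, 7.81 and 8.96 in mutants. Mutant 3 alone was low, and the difference was -0.32 (limma adjusted p = 0.857). Ptgds, prostaglandin D synthase, was the gene at an unadjusted p under 0.05, with levels of 7.38, 6.14, 5.94 and 6.24 in wild type and of 5.69, 5.71, 5.58 and 6.10 in mutants. Wild type 1 was far above the rest, and the difference of -0.65 was -0.33 without it. Star and Cyp11a1, which start the pathway, were near the detection limit and both differed by -0.06. Peritubular, macrophage and endothelial lists had 6, 9 and 9 measured genes, with 0 at an unadjusted p under 0.05 in each. These counts rest on the brightest probe of each gene. For the peritubular gene Acta2 that probe differed by 0.08, and 3 further probes by -0.32, -0.14 and -0.49. The last had an unadjusted limma p of 0.015. Mylk differed by 0.29 and its further probe by -0.11. The epididymis list had a median of 0.49 over 31 genes, with 26 above 0, and of -0.26 without wild type 4.

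**Figure D4:**
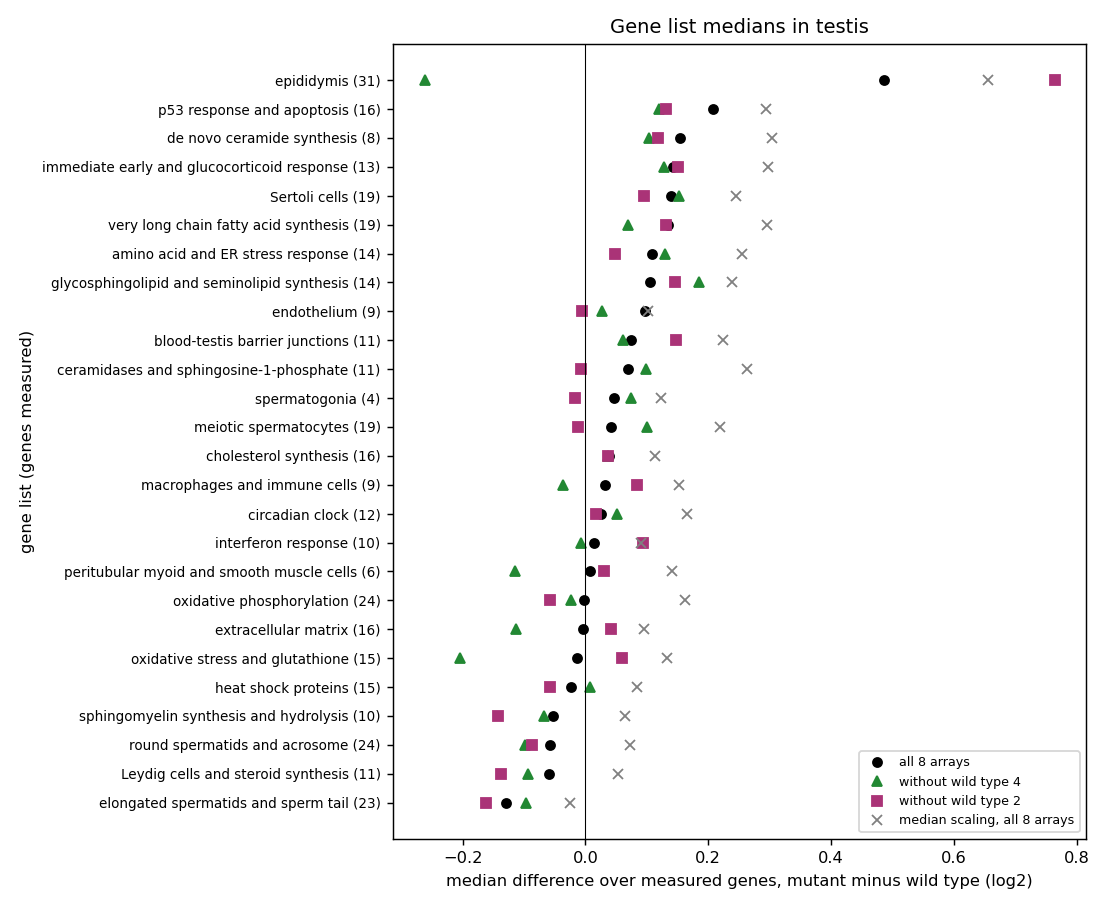
Median difference, mutant minus wild type (x axis, log2), of each gene list with at least 4 measured genes (y axis, number measured in brackets), with all 8 arrays (circles), without wild type 4 (triangles), without wild type 2 (squares) and with median scaling (crosses). The epididymis median moves from 0.49 to -0.26 without wild type 4, and median scaling shifts most lists to the right.

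Median scaling in place of quantile normalization moved the median of all differences from 0.02 to 0.12 and raised the share of probes above 0 from 54.2% to 74.9%. With it 28 of the 29 lists that could be measured had a median above 0, against 19 otherwise. The sign of a small list median thus carries no direction. The remaining list, elongated spermatids and sperm tail, was at -0.03 with median scaling and at -0.13 otherwise.

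Stress and cell function lists were described in the same way. Over all 8977 genes, 2.66% were higher and 3.13% lower at an unadjusted p under 0.05. Of 16 genes of the p53 response and apoptosis, 3 were higher and 0 lower at that p. Their median was 0.21, at 0.12 without wild type 4 and 0.13 without wild type 2. Sesn2, a stress-induced regulator of growth signalling, had levels of 4.80, 4.35, 5.05 and 4.85 in wild type and of 5.10, 5.08, 5.57 and 5.05 in mutants. The others were the p53 target Bbc3, which promotes apoptosis (0.36), and Trp53inp1 (0.30). Without both wild type 2 and wild type 4 the differences of Sesn2 (0.44 over all arrays) and Bbc3 were 0.29 and 0.14. A second probe of Bbc3 differed by -0.22, and Bbc3 was detected on 2 of 4 wild-type arrays. Of 14 genes of the amino acid and ER stress response, 1 was higher and 0 lower at an unadjusted p under 0.05. That gene was again Sesn2, and the list median was 0.11 (0.05 without wild type 2). A further probe of Ddit3, of the same list but not its brightest, differed by -0.52 (limma unadjusted p = 0.0022, adjusted p = 0.767). Of 24 genes of oxidative phosphorylation, 3 were lower and 0 higher. They were Ndufs3 of complex I (-0.54), Sdhb of complex II (-0.41) and Cox7c of complex IV (-0.32), while the median was -0.00. Sdhb was at -0.26 without wild type 2, and 2 further probes of it differed by 0.06 and -0.15. Oxidative stress genes had 1 of 15 lower, Srxn1, which repairs peroxiredoxins (-0.46), and 1 higher, Gclm, of glutathione synthesis (0.32). Of 15 heat shock genes 1 was lower, the mitochondrial chaperone Hspd1 (-0.44), with a further probe at 0.07. Of 10 interferon genes and 13 immediate early genes 0 had an unadjusted p under 0.05. The extracellular matrix list had 1 of 16 lower, the proteoglycan Lum (-0.36), and the clock list 1 of 12 higher, Per3 (0.34), which was detected on 1 of 4 wild-type arrays. In each of these lists 0 genes passed.

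The 12 lower and 12 higher genes of smallest p differed by 1.34-fold to 2.12-fold, and 0 of 24 passed (limma adjusted p between 0.207 and 0.803). Their groups were apart in 23 of 24, which the choice by p makes likely. Ccdc57, whose human protein is known from centrioles, had the smallest p, with levels of 6.69, 6.86, 6.68 and 6.79 in wild type and of 6.02, 6.02, 5.92 and 6.01 in mutants. The gap between the genotypes was far wider than the spread within either, and the difference was -0.76 (SE 0.111, limma adjusted p = 0.207). Without the detection filter this 1 probe passed (limma adjusted p = 0.0216). Olfr303, an olfactory receptor gene, had levels of 6.89, 6.98, 6.64 and 6.81 in wild type and of 5.89, 6.30, 5.64 and 5.88 in mutants. Its difference was -0.90 (SE 0.151, limma adjusted p = 0.395). Ccdc27 had levels of 8.19, 8.45, 8.20 and 8.58 in wild type and of 7.44, 7.52, 7.54 and 7.83 in mutants, yet its 2 other probes differed by 0.02 and 0.00. Gatad1 was alike, at -0.61 on the probe named and 0.11 and 0.13 on 2 others. These 24 genes were taken by their probe of smallest p, and for 5 of them another probe was brighter. On the brightest probe Rusc2 differed by -0.17, Syce1l by -0.10, Upf1 by 0.16, Ino80c by 0.07 and Hnrnpc by 0.16.

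The other lower genes were BC048671 (-0.71), Gm1673 (-0.63), Mrpl27, a mitochondrial ribosomal protein (-0.57), Rusc2 (-0.55), Tbc1d19 (-0.56), Fam24a (-0.68), Prm3 and the defensin Defb14 (-0.54). In each of them all 4 mutants lay below all 4 wild types. The higher genes were led by Mapk14, the stress kinase p38 alpha. It had levels of 6.25, 5.95, 6.15 and 6.01 in wild type and of 6.62, 6.59, 6.81 and 6.57 in mutants, a difference of 0.56 (SE 0.122, limma adjusted p = 0.751). Catsperg2, a subunit of the sperm calcium channel, had levels of 7.83, 7.72, 7.73 and 8.22 in wild type and of 8.58, 8.41, 8.48 and 8.23 in mutants. Wild type 4 and mutant 4 were almost level, and the difference was 0.55 (SE 0.144). Syce1l, related to a synaptonemal complex protein, differed by 0.58, was detected on 2 of 4 wild-type arrays. The remaining higher genes were Itgb5 (0.53), Upf1 of nonsense-mediated decay (0.46), Ino80c of a chromatin remodeller (0.45), Hnrnpc (0.48), Rfwd3 (0.46), Klf13 (0.42), Zfp869 (0.63), Mmd (0.51) and the Golgi glycoprotein Glg1 (0.47). Of these last, Zfp869 was detected on 1 of 4 wild-type arrays, Itgb5 on 2 of 4 and Klf13 on 3 of 4. Of the 24 genes, 15 passed in the fit over all 22 arrays. Those lower were Ccdc57, Olfr303, Ccdc27, BC048671, Gatad1, Mrpl27, Prm3, Fam24a, Defb14 and Gm1673, and those higher were Mapk14, Catsperg2, Syce1l, Itgb5 and Ino80c.

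The testis difference was last set against that in muscle and brain, which came from younger mice, so tissue and age cannot be told apart. Sgms1 differed between genotypes by -0.77 in testis on jointly normalized values, and the testis minus muscle difference was -0.12 (SE 0.552, limma adjusted p = 0.963). That test does not show that the tissues are alike. Of 12487 probes, 37 passed for testis minus muscle (0.296%), 22 with a higher (0.176%) and 15 with a lower (0.12%) difference in testis, and 1234 (9.88%) had an unadjusted p under 0.05. The 37 became 17 without mutant 2, 61 without wild type 2, 8 with array weights and 3 with the replicate block. Of the 37, 28 had the larger genotype difference in muscle. Lep, the leptin gene of fat cells, differed by 0.02 in testis and by -2.55 in muscle. Cdsn, an adhesion protein of cornified cells, differed by 0.46 and -2.07, and Ntrk2, a neurotrophin receptor, by 0.55 and -1.38. Cdsn was detected on 4 of 7 muscle arrays, with a muscle mutant mean of 4.77. Ntrk2 was detected on 5 of 8 testis arrays, with a testis wild-type mean of 4.84. The sizes of these differences are therefore limited by signal near background. Mmd, a gene first known from macrophages, differed by 0.74 in testis and by -1.11 in muscle. Map4, a microtubule-associated protein, differed by -0.36 and 1.11. Limma adjusted p for these 5 differences between tissues ran from 0.00265 to 0.011. With replicate number as a block it was 0.0684 for Lep and Map4 and 0.0604 for Mmd, and with array weights 0.0508 for Ntrk2, so 4 of the 5 calls were lost in 1 or the other of these fits. The labels do not say whether replicate numbers pair mutant with wild-type mice, and the block lowers the residual degrees of freedom. Map4 was also lost with the authors' processed values (0.052). Cdsn passed in each of the alternatives run. Testis differed from muscle in sign for Mmd, Cdsn, Ntrk2 and Map4, although none of them passed within testis.

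**Figure D5:**
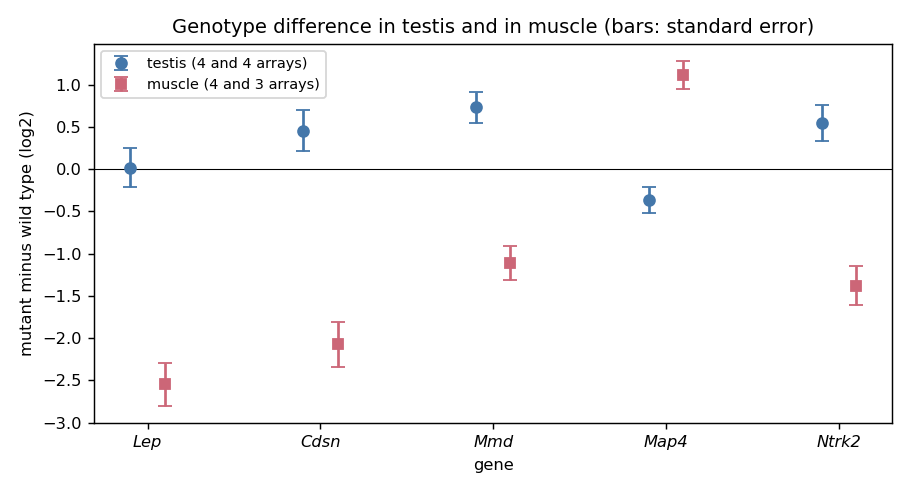
Mutant minus wild type (y axis, log2, bars show the standard error) for the 5 genes (x axis) with the smallest p in the test of testis minus muscle, in testis (circles) and muscle (squares). The muscle difference exceeds the testis difference in size for all 5, and Lep is at 0.02 in testis.

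For testis minus brain, 0 of 12487 probes passed (0%), with 737 (5.9%) at an unadjusted p under 0.05 in limma. In brain Sgms1 differed by -0.72 (SE 0.405), and testis minus brain by -0.05 (SE 0.552, limma adjusted p = 0.993). Before this test was run, the genotype labels of the brain arrays were held in doubt by their Sgms1 level. Whether those labels are right was not tested, so this contrast may not compare genotypes. The smallest p was that of Mrpl27, at -0.94 (limma adjusted p = 0.082), followed by Olfr303, Arhgef6, BC048671 and Ccdc27. Prm3 differed by -1.07 in testis on joint values and by -1.02 (SE 0.261, limma adjusted p = 0.465) for testis minus brain. Both contrasts use the same testis arrays, so their values are not independent of each other.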

How the data were processed

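For every array the authors deposited raw linear intensity values beside a detection p-value for each probe, called non-normalized per the file headers. A second deposited table holds processed intensity values of unstated scaling. The submitters' processing notes name GenomeStudio 2011.1. Of 25697 probes, 23978 had 1 gene symbol and 1719 none in the platform annotation. 0 columns were left unused.

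Testis intensities were background-corrected, quantile-normalized and log2-transformed with neqc (offset 16; limma 3.58.1, R 4.3.3). Probes with a detection p under 0.05 on at least 3 of 8 arrays were kept. limma (lmFit, eBayes) gave two-sided tests of mutant against wild type, adjusted after Benjamini-Hochberg at 5%. All adjusted and unadjusted p-values of probes come from limma unless called exact. Differences between tissues were interaction terms on all 22 arrays normalized together, which is why a gene's testis difference there can depart from the testis fit. A gene was read by its probe of highest mean. The 24 genes of smallest p depart from that rule, since each was read by its probe of smallest p. Further probes are mentioned where they go the other way. "At least" folds use the lowest detected signal of the dim group. The fit was tested on simulated data.

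The rule for named genes took Sgms1, Sgms2 and Samd8, the 12 largest passing changes per direction or, as here, the genes of smallest p to 12 per direction, the first 3 and up to 4 smallest-p members of 30 lists, Spint4, Adam7, 6 neighbours of Sgms1 per side and 5 probes per tissue difference. Members, lists and rule were chosen with earlier results of these data known. The alternatives were other background corrections, scalings, filters, fits, weights, a replicate block, an epididymal covariate, leaving out each replicate, and, chosen after seeing the data, leaving out wild type 2 and 4. The number of arrays limits the precision.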

Additional observations from a re-analysis of the deposited data

Results flagged for a closer look

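Among 160 groups of 4 arrays checked for a single array far from the other 3, 14 were found, and chance alone flags about 1 in 20. Wild type 4 accounted for 4 of them, mutants for 8. Sgms2 stood at 8.376 in wild type 4 against 8.04 to 8.09 in the other wild types. Spint4 (4.508), Adam7 (5.116) and the mean of the epididymis list (5.16) were low in the same array. That low level was known before they were checked, so their flags cannot be set against the chance share. The epididymis mean was also lowest among mutants in mutant 1, at 7.812. Among single genes, Ccdc57 was low in mutant 3 (5.916), BC048671 high in mutant 4 (5.93), Upf1 low in wild type 1 (4.833), Mmd low in mutant 2 (5.405) and Sesn2 high in mutant 3 (5.57). Of list means, spermatogonia were low in mutant 1 (5.152), round spermatids high in mutant 1 (8.547), sphingomyelin genes low in mutant 3 (5.999) and cholesterol synthesis low in wild type 2 (6.082).

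The genotype difference itself departed between testis and muscle, by limma's interaction term, for Lep (2.569), Cdsn (2.532), Mmd (1.844), Ntrk2 (1.926) and Map4 (-1.476), all testis minus muscle on the log2 scale. Of these only Cdsn passed in each of the alternatives run, and it was detected on 4 of 7 muscle arrays. Testis and muscle mice differed in age, so tissue and age cannot be told apart.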

How the results depend on the processing

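No testis probe passed except 1 without the detection filter and 40 in 1 fit over all 22 arrays, where the spread came partly from the other tissues. The 691 testis probes at an unadjusted p under 0.05 became 320 with median scaling, 1373 without the detection filter, 1522 in the fit over all 22 arrays, 1099 with the epididymis mean as a covariate, and 421 (without mutant 3) to 1081 (without wild type 4) when 1 array was left out. Testis minus muscle gave 37 probes, 18 with median scaling, 19 with the authors' processed values, 59 without the filter, 8 with array weights, 3 with the replicate block, 17 (without mutant 2) to 61 (without wild type 2) when 1 array was left out, and 82 without both wild type 2 and wild type 4. Testis minus brain gave 0, but 3 without background correction, 2 with an offset of 50, 2 with the authors' values, 1 without the filter, 1 with the stricter filter, 1 with trend and robust options, 0 to 15 (without mutant 4) when 1 array was left out, and 7 without both wild types. The sign turned for 4 genes: Sgms2 with median scaling (0.052), Samd8 with array weights (-0.13), with 1 array left out (-0.28 without wild type 2 to 0.19 without wild type 4) and without both wild types (-0.21), Adam7 with 1 array left out (-0.11 without wild type 4 to 1.88 without wild type 2) and without both (-0.015), and Spint4 without both (-7.7e-04). The causes were not tested. Of 1157 values of 53 named genes under these alternatives, 1150 kept their direction. Sgms1 ran from -0.25 without background correction to -0.86 without wild type 2 and never passed. The labels do not say whether replicate numbers pair mutant with wild-type mice. Same-numbered arrays had deviations correlated at -0.014 to 0.020, which does not decide it. With the block 0 testis probes passed, 671 had an unadjusted p under 0.05, and Sgms1 was at -0.62 (limma adjusted p = 0.839). A block on the slide was not run, since the tables give no slide. Probes near background limit what dim genes can show.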
